A study of Mus musculus with 8 samples.

Results

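The mitosis genes described here are 40 mouse genes whose products carry a cell through mitosis, taken as a fixed list of gene symbols and looked up among the 48526 genes of a raw count table. All 40 were found by their Ensembl identifiers in the GRCm38 annotation, and all 40 had enough reads to be tested. The list holds the kinases and cyclins of mitotic entry, the Aurora kinases with the chromosomal passenger complex, the spindle checkpoint, factors of anaphase, the centromere and kinetochore, the spindle, cytokinesis, and the condensins with other proteins of the mitotic chromosome. The rule uses gene symbols and no measured value, although the list was chosen with earlier results of these data known.

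The RNA came from 4 wild-type C57bl6/J male mouse embryos at stage E8.5f, a stage of heart looping. The heart field, the sheet of cardiac precursors behind the tube, was dissected from each embryo and cut at the midline, so the 8 poly-A libraries are 4 left samples and 4 right samples in 4 pairs. The embryos are named L29-3, L43-5, L46-8 and L49-3, none was treated or mutant, and each library is the tissue of 1 side of 1 embryo. The question asked of the mitosis genes was whether the 2 sides differed, and how far the 4 embryos differed from each other.

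Mitosis starts when the pair of cyclin B and the kinase CDK1 is switched on by the phosphatase CDC25. Chromosomes then condense, microtubules attach to their kinetochores, and a checkpoint holds the cell until all are attached, after which the anaphase-promoting complex triggers separation of sister chromatids and exit from mitosis. Many of these genes are transcribed mainly late in the cell cycle, so in a bulk sample their RNA is often read as a mark of dividing cells. In these bulk samples, fewer cells in division and less RNA per dividing cell cannot be told apart.

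Genes of late cell cycle phases often carry, near the start of transcription, a cell cycle genes homology region (CHR, searched as TTTGAA) and CCAAT boxes (searched as CCAAT). The list was therefore read against the RefSeq promoter windows of GRCm38.p6, each 300 bases long with 250 before the start, on both strands. A window was given for 33 of the 40 genes, and the genes without one were Ccna2, Cdc25c, Aurkb, Incenp, Tpx2, Kif20a and Smc4. Bub3, Prc1 and Ect2 have several windows and were counted once each. The sequences below are 120 bases each that end before the first base of transcription in both RefSeq and GENCODE. Ccnb1, Cdk1 and Plk1 are shown because they led the differences among embryos, and Cdc20, Kif11 and Top2a because their CHR lies close to the start. They are written 5′ to 3′ on the strand of the gene, with every match on either strand in capitals. Matches outside a stretch are not shown. The stretch of Ccnb1 ends at -85 from the RefSeq start, that of Cdk1 at -27 and that of Cdc20 at -10. Left out are a second CCAAT of Ccnb1 at -67 to -63 and the only TTTGAA of Plk1, at bases 31 to 36 after the start. A second TTTGAA of Cdk1 lies at -15 to -10 and a second CCAAT of Cdc20 at -8 to -4. Cdk1 has a further CCAAT upstream, and Top2a a further TTTGAA at -179 to -174 and further CCAAT matches upstream.
Ccnb1: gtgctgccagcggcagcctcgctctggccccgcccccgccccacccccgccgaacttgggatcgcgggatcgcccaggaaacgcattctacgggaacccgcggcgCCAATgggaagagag
Cdk1: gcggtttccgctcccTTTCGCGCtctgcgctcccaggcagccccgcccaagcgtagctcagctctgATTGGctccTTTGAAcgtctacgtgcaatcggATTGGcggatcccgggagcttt
Plk1: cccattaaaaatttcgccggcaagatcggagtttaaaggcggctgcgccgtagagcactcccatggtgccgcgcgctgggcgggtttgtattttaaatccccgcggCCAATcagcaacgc
Cdc20: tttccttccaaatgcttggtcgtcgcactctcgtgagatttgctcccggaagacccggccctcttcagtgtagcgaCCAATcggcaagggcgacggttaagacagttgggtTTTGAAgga
Kif11: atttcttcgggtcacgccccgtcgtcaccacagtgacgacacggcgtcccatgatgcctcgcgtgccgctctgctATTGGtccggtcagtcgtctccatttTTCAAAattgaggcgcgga
Top2a: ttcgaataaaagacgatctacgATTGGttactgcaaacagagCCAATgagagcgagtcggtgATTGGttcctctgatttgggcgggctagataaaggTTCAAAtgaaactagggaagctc
The stretch of Ccnb1 is chr13:100786571-100786690 on the minus strand, Cdk1 is chr10:69352939-69353058 on the minus strand, and Plk1 is chr7:122159315-122159434 on the plus strand. Cdc20 is chr4:118437353-118437472 on the minus strand, Kif11 is chr19:37376262-37376381 on the plus strand, and Top2a is chr11:99024190-99024309 on the minus strand.

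TTTGAA was present in the windows of 24 of the 33 genes (72.7%), against 20.2% of the 27025 genes with a window. CCAAT was present in 25 of 33 (75.8%), against 41.1% of those 27025 genes. Both stood in 1 window for 21 of 33 genes (63.6%), against 7.97% of the 27025. These 27025 genes were not limited to the 9744 genes with enough reads to be tested. In a wider list of 111 further mitosis genes the shares were lower than among the 40, with TTTGAA in 41 of 92 windows (44.6%), CCAAT in 60 (65.2%) and both in 31 (33.7%); the difference was not tested. The E2F motifs TTTCGCGC and TTTGGCGC are common in genes of the S phase. Each was found in 1 of 33 windows, in Cdk1 and Ncapd2, against 0.374% and 0.585% of the 27025 genes. In a list of 60 DNA replication genes, which serve the preceding phase, TTTGAA was found in 7 of 49 windows (14.3%), CCAAT in 27 (55.1%), both in 3 (6.12%), TTTCGCGC in 8 (16.3%) and TTTGGCGC in 6 (12.2%). None of the letters searched was found in the windows of Birc5, Mad2l1, Nuf2, Nusap1 and Ncaph. None of these motifs contains another, but where CCAAT overlaps its own reverse complement, as in Ube2c, both were counted. A match of letters is a description of the window and not evidence of a bound site.

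**Figure D1:**
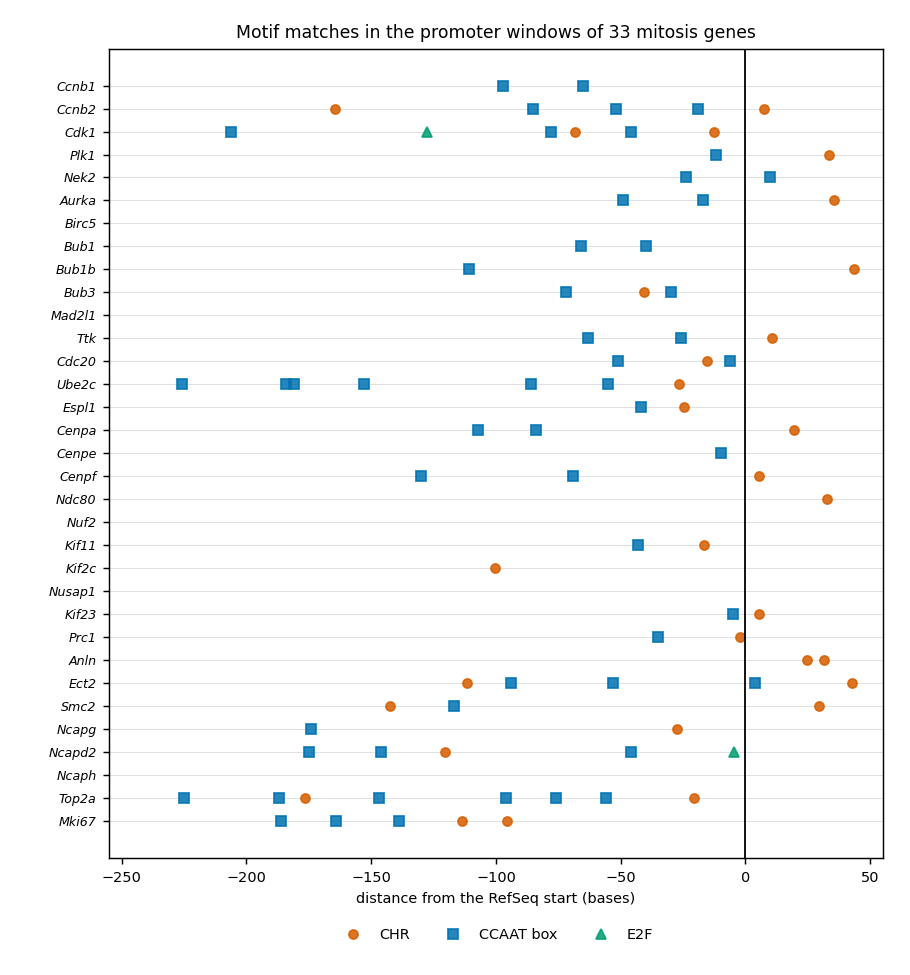
Motif matches in the promoter windows of the 33 mitosis genes with a window, by distance in bases from the RefSeq start (vertical line), for the first listed window of each gene. Circles are TTTGAA (CHR), squares CCAAT and triangles the E2F motifs. The CCAAT matches lie mostly before the start, and the CHR matches gather on both sides of it.

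The tables held between 1147446 and 3520753 counts per library, with the deepest libraries from embryo L43-5 and the shallowest from L49-3. The 8 markers of the second heart field were all read well enough to be tested, and summed to between 690 and 1088 normalized counts in every library. Sums of the 6 neural tube markers ranged from 114 to 372 in 3 embryos and were 486 on the left and 676 on the right of L49-3, in which the 3 juxta-cardiac markers summed to 48.0 and 51.5 against 203 to 425 elsewhere. The 8 cardiomyocyte markers, the RNA of the heart tube that lies next to the dissected field, summed to 667 on the left and 2187 on the right of L49-3 and to between 1799 and 5066 elsewhere. The part of these differences in the results below was not tested.

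As a group the mitosis genes took a small share of the reads. They made up 0.816% ± 0.0512 of the reads of the left libraries and 0.794% ± 0.0595 of those of the right (mean ± SD, n = 4). In embryo L43-5 they made up 0.887% of the left library and 0.870% of the right one, and in the other 3 embryos between 0.726% and 0.813%. The 95% Wilson intervals of the L43-5 libraries were 0.877% to 0.898% and 0.860% to 0.879%, which lie above those of the other 6 libraries. These intervals cover counting error only.

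Levels were compared between genes per length, as CPM (counts scaled to a common library total, with the trimmed mean of M-values) per kilobase of the principal transcript. Ube2c, the ubiquitin-conjugating enzyme that works with the anaphase-promoting complex, stood highest at 199 ± 17.7 CPM per kilobase (mean ± SD over 8 libraries). Top2a, the topoisomerase that untangles sister chromatids, followed at 159 ± 8.88. Ube2c was above Top2a in 8 of 8 libraries, and Top2a was above the next gene in 8 of 8. That gene was Birc5, which encodes survivin of the chromosomal passenger complex, at 121 ± 8.09. Ncapd2, a subunit of condensin I, had 120 ± 3.35 and was below Birc5 in only 5 of 8 libraries, so their order was not settled. Cdc20, the activator of the anaphase-promoting complex, had 105 ± 11.3.

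The lowest member was Cdc25c, the phosphatase that activates CDK1, at 18.7 ± 3.66 CPM per kilobase. Just above it lay Mad2l1, a checkpoint protein, at 20.6 ± 0.832, the separase gene Espl1 at 20.8 ± 2.66, the centrosomal kinase gene Nek2 at 21.4 ± 3.08 and the checkpoint kinase gene Ttk at 24.8 ± 2.36. Espl1 was above Mad2l1 in 5 of 8 libraries and Nek2 above Espl1 in 5 of 8. These low levels were still well covered, with 611 reads of Cdc25c and 2500 of Mad2l1 over the 8 libraries. The order depends on the length used: with the union of all annotated exons Cdc20 ranked 1, Ube2c 6 and Birc5 18. By that length Cdc25c kept rank 40, and Ndc80 and Nuf2 ranked 39 and 38. Mad2l1, Espl1, Nek2 and Ttk ranked 31, 32, 33 and 34. The principal transcript of Mad2l1 is 7557 bases long, and its mean normalized count of 287 was near the members' median of 301.

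**Figure D2:**
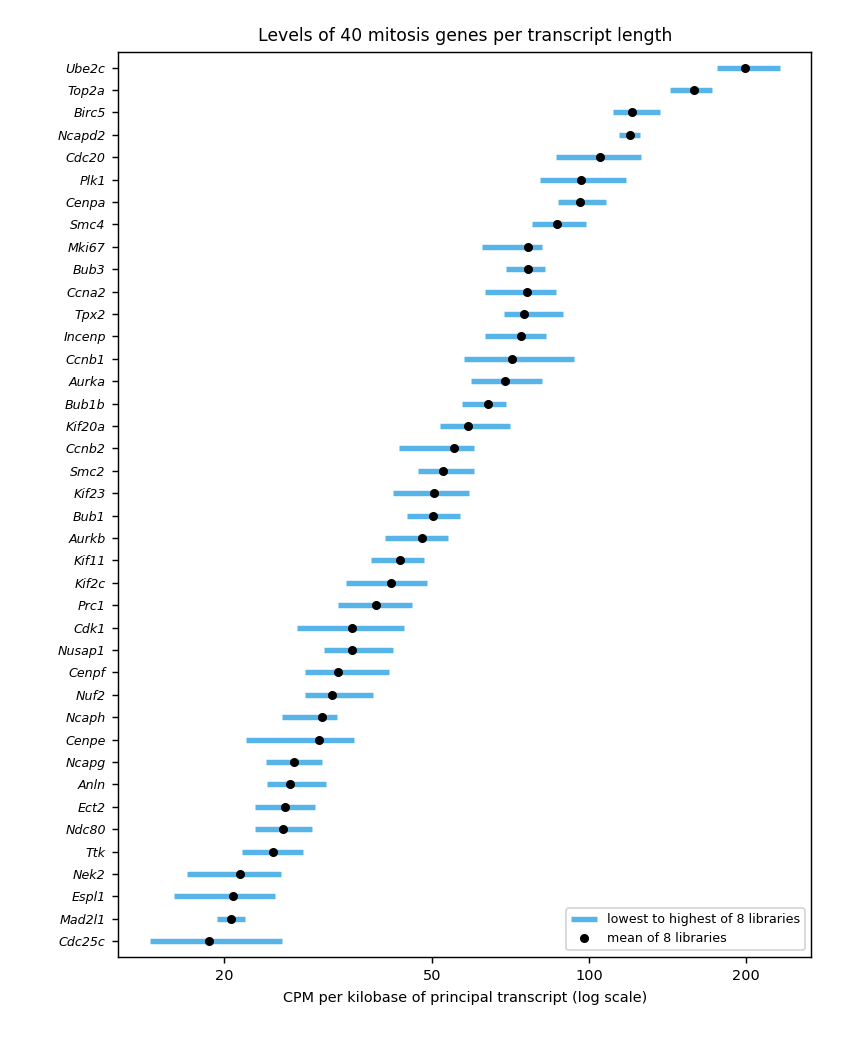
Levels of the 40 mitosis genes in CPM per kilobase of the principal transcript (log axis), as the mean (points) and the lowest to highest of 8 libraries (bars). The range runs from 18.7 for Cdc25c to 199 for Ube2c, and most neighbors overlap.

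Between the left and right heart field, no mitosis gene passed a test. None of the 40 had an adjusted p under 0.05 in the quasi-likelihood test of edgeR, in which libraries were paired by embryo, where 0.0103% of the 9744 genes tested did. None passed the looser threshold that the study uses, a change of 1.2-fold or more together with an unadjusted p no higher than 0.05, against 3.05% of all genes, and none had an unadjusted p under 0.05. DESeq2 and limma-voom also gave 0 members with an unadjusted p under 0.05. The fitted log2 fold changes of left to right spanned -0.17 to 0.15. Their median was 0.01, beside -0.004 for all genes. On the left 25 members had the higher value and 15 the lower, 62.5% against 48.6% of all genes.

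The precision was enough to bound the differences. The 95% interval of every member held 0, and for all 40 it lay within 1.5-fold in either direction, which was so for 74.2% of all genes. It lay within 1.2-fold for 21 of the members. The members had more reads than most genes, with a median normalized count of 301 against 91.5, and their median standard error was 0.08 against 0.14 on the log2 scale. For the other members, a difference of 1.2-fold lay inside the interval and could not be told from 0 at this depth and number of embryos.

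A minority of the members, as of all genes tested, had the same direction in all 4 embryos. Of the 40 genes, 3 (7.5%) had ratios on 1 side of 0 in every embryo, against 12.4% of all genes. They were Ttk, lower on the left, and Aurkb and Kif20a, higher on the left. The normalized counts of the left and right libraries overlapped for all 40 members; over all genes tested, the sides did not overlap for 2.51%. Over the members, the left to right log2 ratio had a median of 0.03 in L29-3 and 0.01 in L43-5. It was -0.05 for L46-8 and 0.07 for L49-3.

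**Figure D3:**
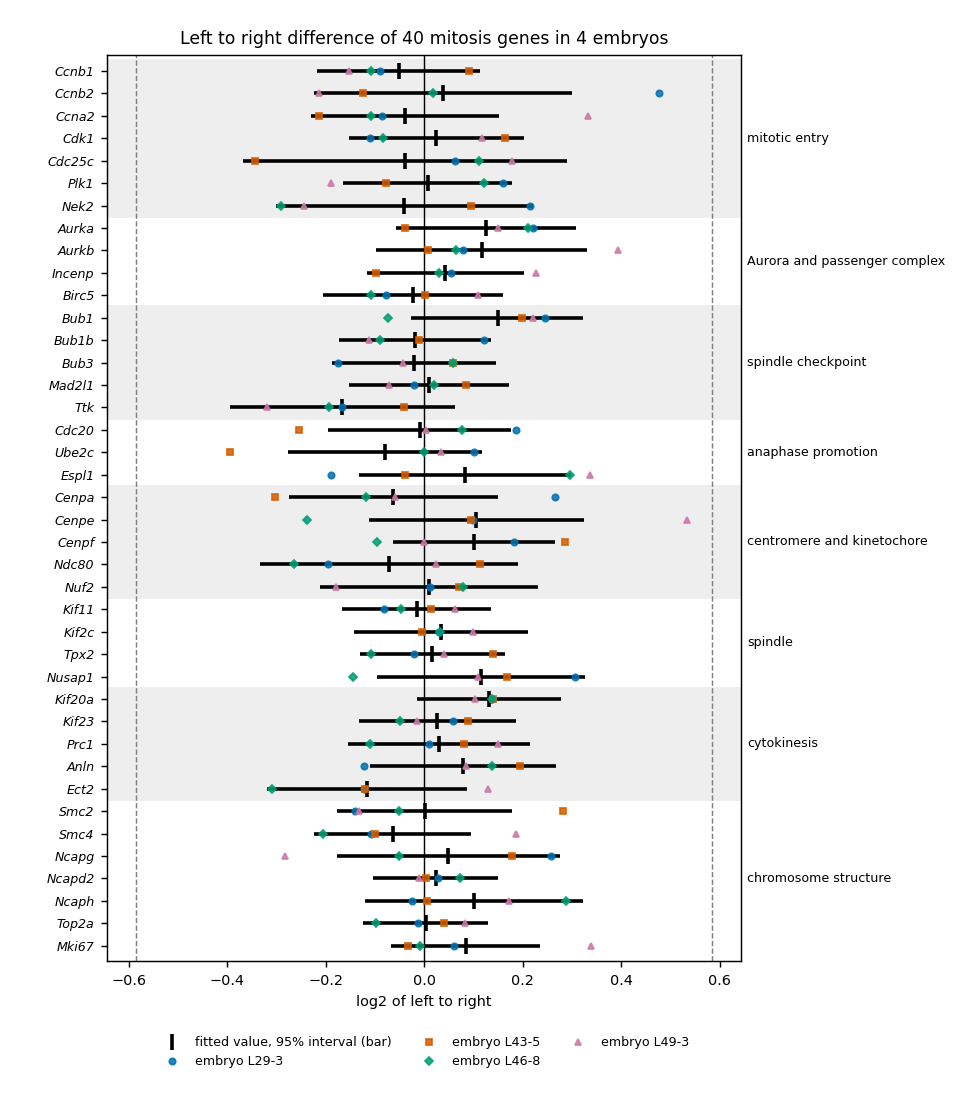
Log2 of left to right for the 40 mitosis genes, grouped by role. Colored symbols are the 4 embryos, black ticks the fitted value and black bars its 95% interval; dashed lines mark 1.5-fold. Every bar crosses 0 and stays inside the dashed lines.

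Among the genes of mitotic entry, the fitted differences were the smallest of any role, from -0.05 to 0.04 on the log2 scale over 7 genes. Ccnb1, which encodes cyclin B1 (chr13:100778650-100786570), had normalized counts of 264, 431, 325 and 268 on the left and 282, 404, 348 and 296 on the right, in the order L29-3, L43-5, L46-8 and L49-3, used throughout. The left value was the lower one in 3 of 4 embryos, and the log2 fold change was -0.05 ± 0.08 (SE). Its kinase partner Cdk1 (chr10:69335146-69352938) had 265, 359, 283 and 243 on the left and 287, 321, 298 and 223 on the right, for a log2 fold change of 0.02 ± 0.08. For both genes L43-5 was the highest embryo on either side. Ccnb2, Ccna2, Cdc25c, Plk1 and Nek2 lay between -0.04 and 0.04.

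Of the Aurora kinases and their complex, both kinases had fitted values above 0. Aurka, the kinase of the spindle poles (chr2:172356190-172370535), had 243, 278, 253 and 242 on the left and 209, 286, 217 and 216 on the right. The left library was higher in 3 of 4 embryos and the log2 fold change was 0.13 ± 0.08 (adjusted p = 0.987, edgeR), and 0.20 without L43-5. Aurkb, the kinase of the passenger complex (chr11:69045647-69051664), had 176, 189.7, 164 and 194 on the left and 167, 189, 156 and 146 on the right. In each of the 4 embryos its left library was the higher one, by 0.01 to 0.39, with a log2 fold change of 0.12 ± 0.10, and 0.05 without L49-3. The scaffold Incenp and survivin (Birc5) had log2 fold changes of 0.04 and -0.02.

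The spindle checkpoint held both ends of the range. Ttk, the kinase also known as MPS1 that recruits the checkpoint to unattached kinetochores (chr9:83834689-83872389), had 114, 129, 132 and 119 on the left and 129, 133, 149.7 and 148 on the right. The left value was lower in every embryo, by 0.04 to 0.32, yet the sides overlapped, and the log2 fold change of -0.17 ± 0.10 had a 95% interval of -0.39 to 0.06. Bub1, the kinase that marks centromeres for shugoshin (chr2:127801122-127831865), had 335, 344, 301 and 359 on the left and 283, 299, 315 and 306 on the right. The left library was higher in 3 of 4 embryos, and the log2 fold change of 0.15 ± 0.08 had an interval of -0.03 to 0.32. Bub1b, Bub3 and Mad2l1, which form the inhibitory complex that holds CDC20, lay between -0.02 and 0.01.

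The 3 factors of anaphase lay between -0.08 and 0.08. Ube2c had a log2 fold change of -0.08 ± 0.09, with normalized counts of 375, 316, 368 and 336 on the left and 350.3, 415, 365 and 326 on the right. The largest gap was in L43-5, where the right library was higher. Cdc20 and Espl1 had log2 fold changes of -0.01 and 0.08.

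At the centromere and kinetochore, 3 members had higher values on the left and 2 lower. Cenpe, the kinesin that carries chromosomes to the spindle equator, had 465, 519.6, 396 and 468 on the left and 436, 486, 463 and 321 on the right. Its log2 fold change of 0.11 ± 0.10 rested on L49-3, whose log2 ratio was 0.53: it was -0.01 without that embryo and 0.22 without L46-8. Cenpf, a large kinetochore protein of late G2 and mitosis, had 734, 852, 646 and 589.9 on the left and 649, 699, 687 and 587 on the right, with 0.10 ± 0.08, which was 0.03 without L43-5 and 0.17 without L46-8. The centromeric histone gene Cenpa had -0.06, and the microtubule-binding Ndc80 and Nuf2 had -0.07 and 0.01. Ndc80 shares coding sequence with 2700099C18Rik, to which 252 reads were assigned, 27.2% of the reads of Ndc80, so its count is uncertain.

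Of the spindle genes, Nusap1, which bundles microtubules around chromosomes, had the largest difference, with 211, 231, 173 and 184 on the left and 171, 206, 190.3 and 169.5 on the right and a log2 fold change of 0.12 ± 0.10. It was 0.05 without L29-3 and 0.20 without L46-8. The kinesin genes Kif11 and Kif2c and the assembly factor gene Tpx2 lay between -0.02 and 0.03.

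Among the cytokinesis genes, Kif20a, a kinesin of the central spindle, had the most even ratio of the list. Its normalized counts were 400.5, 481, 406 and 379 on the left and 365, 437, 367 and 351 on the right. In log2, left over right came to 0.14, 0.14, 0.14 and 0.10 in the 4 embryos, with an SD of 0.02. Counting error of the reads alone gives an SD of 0.108 for such ratios. So small a spread, the lowest of 40 genes, is therefore no measure of precision. The fitted 0.13 ± 0.07 had a 95% interval of -0.01 to 0.28 and an adjusted p of 0.987 (edgeR). Exons of Kif20a overlap those of Cdc23 on the opposite strand over 1271 bases, and whether the counting used strand was not given in the sources used here. Ect2, the exchange factor that activates RhoA at the cleavage furrow, had 182, 208, 173 and 201 on the left and 199, 226, 213 and 183 on the right, and a log2 fold change of -0.12 ± 0.09, which was -0.06 without L46-8 and -0.18 without L49-3. Kif23, Prc1 and Anln lay between 0.03 and 0.08.

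The chromosome genes were the most strongly read of the list. Top2a (chr11:98992943-99024189) had normalized counts of 1524, 1609.7, 1556 and 1463 on the left and 1544, 1566, 1653 and 1373 on the right, for a log2 fold change of 0.00 ± 0.06 with an interval of -0.12 to 0.13. Mki67, the gene of the proliferation antigen Ki-67, had 1510.3, 1473, 1413 and 1468 on the left and 1453, 1508, 1412 and 1153 on the right. Its right library of L49-3 was the lowest, and the log2 fold change was 0.08 ± 0.07. Ncaph, the kleisin subunit of condensin I, had 154, 162, 158 and 164 on the left and 157, 161, 128 and 145 on the right, with 0.10 ± 0.10, and 0.04 without L46-8. Ncapd2 was the steadiest member, relative to its mean, between 971 and 1068 in the 8 libraries, with a log2 fold change of 0.02 ± 0.06. Smc2, Smc4 and Ncapg had log2 fold changes of 0.00, -0.06 and 0.05.

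Of the 111 further mitosis genes, 110 were tested and 5 (4.55%) passed the study threshold of fold and unadjusted p, near the 3.05% of all genes. Troap and Ckap2, which encode proteins of the spindle, and Cit, the citron kinase of cytokinesis, had higher values on the left in all 4 embryos, with log2 fold changes of 0.40 ± 0.14, 0.32 ± 0.12 and 0.27 ± 0.10. Spc24, a subunit of the NDC80 complex, and Cenpk, a protein of the inner kinetochore, had higher values on the right, with -0.32 ± 0.11 in 4 of 4 embryos and -0.44 ± 0.19 in 3 of 4. The adjusted p of each was 0.987 (edgeR). None of the 5 passed that threshold with DESeq2, and each failed it in edgeR without at least 1 embryo: Spc24 and Cenpk without L29-3, Troap without L43-5, Spc24, Troap and Cenpk without L46-8, and Ckap2, Cit and Cenpk without L49-3. For Cit the log2 ratio was 0.75 in L49-3 and 0.09 to 0.25 elsewhere, and the fitted value was 0.16 without L49-3. That of Cenpk was -0.69 without L43-5. Of the 60 DNA replication genes, all were tested, 0 passed the study threshold and 44 had lower left values. The other 16 (26.7%) had higher left values, against 48.6% of all genes. An unadjusted p under 0.05 (edgeR) was found for 4 (6.67%, against 4.36% of all genes), each with the lower value on the left, and no adjusted p was under 0.05. The log2 fold changes of the 60 genes had a median of -0.06, beside -0.004 for all genes.

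Among embryos some members had a low unadjusted p, although none passed the test adjusted over all genes. In the edgeR test of the 4 embryos together, with side as a covariate, 0 of 40 had an adjusted p under 0.05, against 0.174% of all genes. An unadjusted p under 0.05 was found for 9 members (22.5%), against 9.99% of all genes: Ccnb1, Cdk1, Plk1, Kif2c, Kif23, Kif20a, Cenpf, Aurka and Tpx2. This count rested on embryo L43-5 and on the tool: it was 1 member without L43-5, where 10.4% of all genes had such a p, and 1 with DESeq2, where 3.93% did. It was 7 without L29-3, against 9.8% of all genes, 14 without L46-8, against 13.3%, and 6 without L49-3, against 4.37%. The smallest adjusted p was that of Ccnb1, at 0.0745 (edgeR), followed by Cdk1 at 0.210 (edgeR). With every gene of at least 1 count in the fit, the adjusted p of Ccnb1, Cdk1, Plk1 and Cenpf fell under 0.05, among 641 of 23873 genes. Without embryo L46-8 the adjusted p of Ccnb1 was 0.0114 (edgeR), among 236 genes called. The 2 libraries of an embryo are its 2 sides. The p-values of this test therefore rest on the spread between the sides of an embryo, not on that among embryos. Embryo, litter, exact stage and handling cannot be told apart here.

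The direction was given by comparing each embryo with the mean of the other 3. In L43-5, 39 of the 40 members (97.5%) had the higher value, against 53.3% of all genes. Their median log2 fold change was 0.18, against 0.01 over all genes. An unadjusted p under 0.05 with the higher value in L43-5 was found for 16 members (40%), against 2.77% of all genes and 3.09% of the 5791 genes within the members' range of mean normalized count. With DESeq2 it was 5 members, against 0.38% of all genes, and the median was 0.17. None had an adjusted p under 0.05 in edgeR or in DESeq2. Taken by library, 34 of 40 members on the left of L43-5 and 37 of 40 on the right lay above their own mean over the 8 libraries. Both sides of the embryo thus shared the direction. The median log2 deviation from that mean was 0.134 and 0.125 for the members, and 0.011 and 0.012 over all genes tested. The share of all genes above their own mean was not counted. L43-5 also had the 2 deepest libraries, and the part of depth in this result was not tested.

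The genes of mitotic entry held the largest of these differences, but not all of them shared it. Ccnb1 had a log2 fold change of 0.50 ± 0.08 against the other embryos (adjusted p = 0.151, edgeR), the largest of the list. In L43-5 it had 431 and 404 normalized counts, and in the other 6 libraries between 264 and 348, so L43-5 did not overlap the others. Reads assigned to near-identical copies of Ccnb1 came to 7.44% of its own. Cdk1 had 0.35 ± 0.09 (adjusted p = 0.279, edgeR), with 359 and 321 normalized counts against 223 to 298. Plk1, the polo kinase that drives entry and spindle assembly (chr7:122159439-122169873), had 0.34 ± 0.09, with 455 and 480 against 328 to 417. Cdc25c had 0.42 ± 0.16, with 73.0 and 92.8 against 52.0 to 75.9, which overlap. Ccnb2 and Ccna2 had only 0.01 ± 0.13 and 0.11 ± 0.10.

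By role, the median of this difference was 0.34 for mitotic entry, 0.25 for each of the spindle and cytokinesis, 0.245 for the centromere and kinetochore, 0.17 for the Aurora group and 0.13 for the anaphase factors. It was 0.09 for the chromosome genes and 0.03 for the spindle checkpoint. Kif2c, the kinesin that depolymerizes microtubules at centromeres, had 0.32 ± 0.09, with 229, 256, 209 and 194 on the left and 225, 257, 203 and 179 on the right. Aurka had 0.30 ± 0.09, Kif20a 0.28 ± 0.07, Cenpf 0.25 ± 0.08, Kif23 0.25 ± 0.08 and Tpx2 0.24 ± 0.07. At the other end, Top2a had 0.06 ± 0.07, Ncapd2 0.01 ± 0.07, Birc5 0.01 ± 0.09 and Ttk -0.01 ± 0.11.

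**Figure D4:**
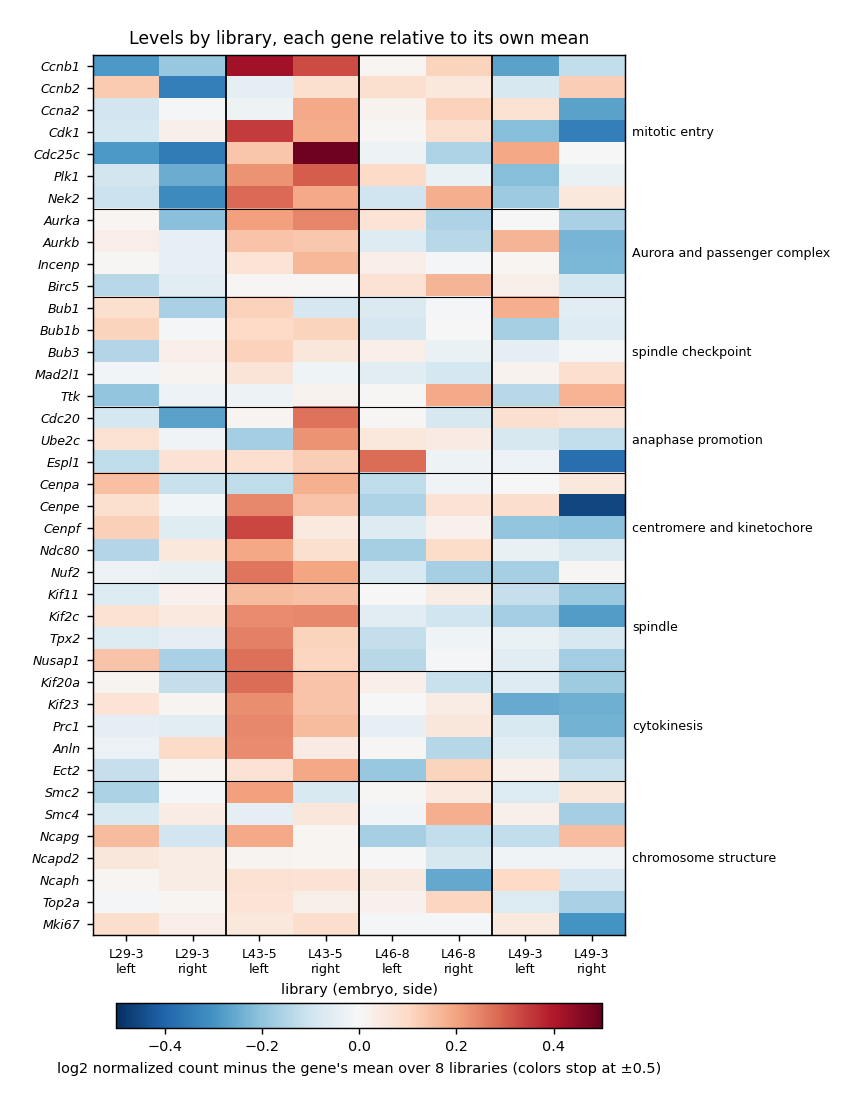
Log2 normalized count of each mitosis gene minus its mean over the 8 libraries, with genes in rows by role and libraries in columns by embryo and side. Both libraries of L43-5 are mostly red (higher), with 34 and 37 of 40 genes above their mean; the right library of L49-3 is mostly blue (lower), with 10 above.

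Embryo L49-3 lay on the other side. There 9 of 40 members (22.5%) had the higher value, against 49.8% of all genes, and the median log2 fold change was -0.11. An unadjusted p under 0.05 (edgeR) with the lower value was found for 6 members (15.0%, against 7.55% of all genes). They were Ccnb1, Cdk1, Cenpf, Kif11, Kif2c and Kif23. Without L43-5 the count was 3 members, against 6.95% of all genes, and with DESeq2 3, against 3.44%. Kif23, a subunit of centralspindlin, had the smallest adjusted p, at 0.106 (edgeR), with 329.9, 370.3, 315 and 265 on the left and 318, 348, 324 and 266 on the right. L49-3 is the embryo with the shallowest libraries and the higher neural tube markers. In L29-3 the median was -0.04, and 4 members had an unadjusted p under 0.05 with the lower value (10%, against 3.01%): Ccnb1, Cdc25c, Plk1 and Cdc20. Without L43-5 it was 0 members, against 4.53% of all genes, and with DESeq2 1, against 0.513%; the log2 fold change of Ccnb1 in L29-3 was -0.32, and -0.17 without L43-5. In L46-8 the median was -0.04 and no member had an unadjusted p under 0.05. The 4 contrasts share libraries and are not independent.

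The further mitosis genes and the replication genes had different medians in the same embryos. In L43-5 the further mitosis genes had a median of 0.09, with 85 of 110 (77.3%) higher, against 53.3% of all genes. Of them, 14 (12.7%) were higher with an unadjusted p under 0.05 (edgeR), against 2.77% of all genes. The replication genes there had a median of -0.02, with 25 of 60 (41.7%) higher. An unadjusted p under 0.05 (edgeR), in either direction, was found for 0 of them, against 7.22% of all genes. In L49-3 the further mitosis genes had a median of -0.06 and the replication genes 0.11. Of the latter, 47 of 60 (78.3%) were higher in L49-3, against 49.8% of all genes. With an unadjusted p under 0.05 (edgeR), 14 (23.3%) were higher, against 7.37% of all genes. The difference between the lists was not tested, and the lists were chosen with earlier results of these data known.

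**Figure D5:**
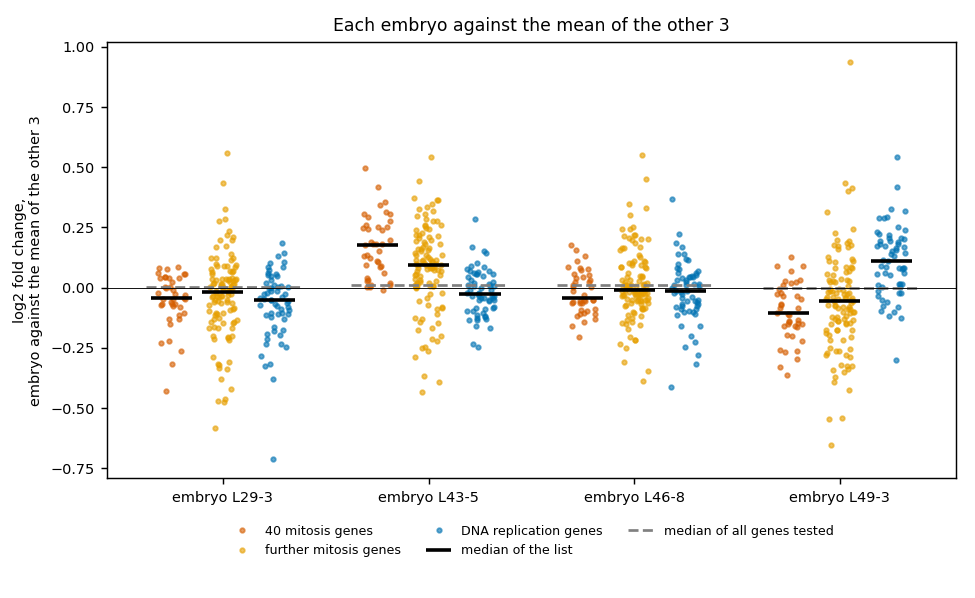
Log2 fold change of each embryo against the mean of the other 3 for the mitosis genes, the further mitosis genes and the DNA replication genes. Points are genes, black lines list medians and dashed lines the median of all genes tested; the mitosis genes have a median of 0.18 in L43-5 and -0.11 in L49-3, where the replication genes have 0.11.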

How the data were processed

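Poly-A RNA of 8 libraries (left and right heart field of 4 embryos) was sequenced as paired-end reads. Per the labels and the methods of the study, the authors mapped reads with HISAT2 to GRCm38, left out duplicate reads, which lowers the totals, and counted the rest per gene with featureCounts of Subread. They deposited raw counts per Ensembl gene, 1 column per library. No other normalization was in the table, and no column was left unmapped. The submitters' notes also name DESeq2 and limma 3.40.6.

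Symbols, exons and overlaps came from GENCODE M21. Genes were tested when the DESeq2-normalized count was at least 20 in at least 4 libraries. Left and right were compared with edgeR 4.0.16 (quasi-likelihood test, TMM, embryo as a block, R 4.3.3), with Benjamini-Hochberg adjustment over all genes. The same fit gave the test of the embryos and each embryo against the mean of the other 3. By their labels, same-numbered libraries are 1 animal. Their deviations correlated at 0.161, 0.190, -0.0143 and 0.439. Left and right libraries of different embryos correlated at -0.387 to 0.253, so the matched values did not all stand above the others. The left library of L46-8 correlated at 0.253 with the right one of L29-3 and at 0.227 with that of L43-5. Per-embryo ratios used normalized counts with a pseudocount of 0.5 reads. With DESeq2 1.42.0, limma-voom 3.58.1, other scalings and filters, and each embryo left out, results were recomputed. Near-identical copies were sought with blastn 2.17.0 in coding bases. The tests were tried on simulated data.

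The members and lists were chosen with earlier results of these data known. Named are the members with the largest absolute left to right difference (10), the 5 highest and 5 lowest per kilobase, the 10 of smallest p among embryos, and at least 1 per role. Of the further mitosis genes, those past the study threshold are named. For left against right, p-values and SE rest on the spread of the paired differences over the 4 embryos. The edgeR fit moderates that spread with information from all genes tested, so it is not a gene's own alone. The SD of the 4 ratios was 0.0171 for Kif20a and 0.316 for Cenpe, where the SE were 0.0672 and 0.100. For the tests among embryos, p-values and SE rest on the spread between the 2 sides of an embryo, moderated likewise. They do not measure the spread among animals. The precision is limited by 1147446 to 3520753 counts per library.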

Additional observations from a re-analysis of the deposited data

Results flagged for a closer look

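In 3 of 82 groups of 4 libraries (each member on each side, and the share of reads), 1 library stood apart from the other 3 by more than Dixon's 95% critical value, and chance flags about 1 in 20 groups. All 3 were libraries of embryo L43-5. On the left, Nek2 had 154 normalized counts in L43-5 against 111 to 118 in the other embryos, and Prc1 had 256 against 206 to 211. On the right, Aurka had 286 in L43-5 against 209 to 217.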

How the results depend on the processing

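Over 12 ways of fitting the left to right comparison, 0 of 40 members passed the study threshold, all 40 intervals lay within 1.5-fold, and the median of the members stayed between 0.01 and 0.03 (0.02 for the 30 members with no exon on the opposite strand of another gene). Without the replicate block the median was 0.01 and 0 members passed. The number of genes called over all genes was 1; it was 34 without the filter, 0 with at least 10 counts in every library, 2 with DESeq2, 0 with no replicate block and 1 to 5 when 1 embryo was left out. Of 165 recomputed values for the named genes, 1 reversed: Cenpe had -0.009 without L49-3, and 0.217 without L46-8. Leaving out 1 embryo moved 9 of the 15 named genes by over 1.5 times: Cenpf 0.030 to 0.168, Aurkb from 0.117 to 0.046, Nusap1 0.054 to 0.200, Ect2 -0.181 to -0.056, Ncaph from 0.101 to 0.039, Aurka from 0.126 to 0.199, Cenpk from -0.441 to -0.689, Cit from 0.273 to 0.158, and Cenpe as above. Of the 5 further mitosis genes past the study threshold, 0 passed it with DESeq2, 4 with limma-voom, 4 without the replicate block and 2 to 4 when 1 embryo was left out. Without L46-8, 2 members (Bub1 and Cenpe) had an unadjusted p under 0.05 in edgeR, where 4.68% of all genes did. In the test among embryos, 0 members were called except 4 without the filter (Ccnb1, Cdk1, Plk1 and Cenpf, with 641 genes called over all) and 0 to 1 when 1 embryo was left out (Ccnb1 without L46-8). Without the filter, 3 members were called in the contrast of L43-5 and 2 in that of L49-3. All genes called in those contrasts were not counted, so these calls have no background share. There, 18 members were higher in L43-5 with an unadjusted p under 0.05 (edgeR), against 2.89% of all genes. In L49-3, 10 were lower, against 5.37%. The cause of these changes with the setting was not tested. The median of the members in L43-5 stayed between 0.155 and 0.205 over 9 alternatives, DESeq2 included (0.169). In edgeR and limma-voom 12 to 18 members were higher there with an unadjusted p under 0.05, where 1.73% to 4.01% of all genes were, and with DESeq2 5 members, where 0.38% were; these were added after seeing the data. At this depth, differences under about 1.2-fold could not be bounded for many members.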
